A study of Mus musculus with 4 samples.

Results

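The 10 imprinted genes described here, all known from embryonic growth, were followed in cultured mouse dorsal root ganglia: H19, Igf2, Meg3, Dlk1, Peg3, Mest, Cdkn1c, Grb10, Plagl1 and Ndn. They were chosen by symbol, as imprinted genes known from embryonic mesenchyme and neurons, and all 10 had a row among the 23282 rows of the count tables. Reads were found in every library for 9 members, and in no library for Dlk1. The ganglia came from C57BL/6 embryos at embryonic day 13 and were grown as explants on Matrigel, first in growth medium and, after day in vitro (DIV) 8, in myelination medium. There were 4 groups, each of 1 library made from 3 pooled explants. The ES groups, harvested at 19 or 11 DIV, had been stimulated electrically at 10 DIV for 1 h, with a frequency of 20 Hz and a field of 50 mV/mm. The control cultures received no stimulation and were harvested on the same days. All 4 groups shared the strain, the embryonic age and the change of medium. The series was made to study what stimulation does to the ganglia.

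An imprinted gene is read from only 1 parental copy, and methylation laid down in the egg or the sperm sets which copy that is. In the mouse the paternal copies of Igf2, Dlk1, Peg3, Mest, Plagl1 and Ndn are the active ones, and the maternal copies of H19, Meg3, Cdkn1c and Grb10, although Grb10 is read from the paternal copy in neurons. Many paternally expressed genes favour fetal growth and many maternally expressed genes restrain it, and most of the members are switched down in the tissues of the young mouse after birth. The counts do not separate the parental copies, so the values below are totals of both.

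The libraries held 5782834 to 7830950 reads of 3' tags, the ends of transcripts read by the QuantSeq method. Values are CPM, read counts brought to a common library total with scaling by the trimmed mean of M values (TMM) and not divided by transcript length, so each gene is compared only with itself. With 1 library a group there was no replicate check, and every interval below compares libraries and not conditions. The reads were clumped: 4.10% to 9.39% of the rows expected at 200 to 1000 reads had none. If every such zero came from sampling, 1 sampled molecule stood for 104 to 158 reads, and real differences would make that estimate too high. Ratios are therefore given with 2 intervals at 95%. The counting interval takes reads as independent. The spread-adjusted interval divides counts by the spread between the 2 libraries over rows of 500 to 3000 reads, a factor of 208 to 258.

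The labelled tissue could be recognised by its markers. All 12 neuron markers had reads in some library, among them Prph and Stmn2. So did all 12 Schwann and satellite glia markers and all 12 fibroblast markers, although some glial markers had only a few reads. In a single library, 10 to 12 neuron, 9 to 10 glial and 10 to 12 fibroblast markers had reads. Summed neuron markers stood at 1865 CPM in ES and 4518 CPM in control at 19 DIV, and at 4808 CPM in ES and 3399 CPM in control at 11 DIV. Summed glial markers stood at 9859 and 11198 CPM in ES and control at 19 DIV, and at 7525 and 4519 CPM in ES and control at 11 DIV. Summed fibroblast markers, led by the collagen genes Col1a2 and Col1a1, stood at 13983 and 9836 CPM in ES and control at 19 DIV, and at 7528 and 5332 CPM in ES and control at 11 DIV. Mural markers (133 to 387 CPM, led by Acta2 and Cspg4), endothelial markers (60.9 to 105 CPM, Egfl7 and Emcn), macrophage markers (56.3 to 143 CPM, Laptm5 and Csf1r) and cartilage markers (4.05 to 78.3 CPM, with reads for Sox9 and Col2a1 only) were low. Of the skeletal muscle markers only Acta1 had reads, at most 18. Pecam1, Tek, Cldn5, Aif1, Cx3cr1, Myh11, Acan and Myod1 were at 0 in every library. Less RNA per cell and fewer cells of a type cannot be told apart in such pooled tissue, and these sums stand beside the members for that reason.

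Igf2 and H19 are neighbours, 72.6 kb apart on chromosome 7, and are known to compete for shared enhancers: the paternal copy makes Igf2 and the maternal copy H19. Igf2 (minus strand, 142650766 to 142666816 in GRCm38, protein-coding) encodes insulin-like growth factor 2, a secreted growth factor of the embryo that acts through the IGF1 and insulin receptors. It had 29.7 CPM in ES and 0.725 CPM in control at 19 DIV, and 88.8 CPM in ES and 179 CPM in control at 11 DIV. Igf2 was thus lower at 19 DIV than at 11 DIV under both treatments, and nearly without reads in the 19 DIV control (5 reads, against 237 in ES of that day). The later library was at 0.334 times the earlier one in ES (counting interval 0.286 to 0.390, spread-adjusted 0.00433 to 6.59). In control it was at 0.00405 times (counting 0.00131 to 0.00949), and the spread-adjusted interval reached up to 1.08. That log2 difference of -7.43 lay below all but 1.41% of the rows tested.

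Stimulated cultures differed from controls in opposite directions for Igf2 on the harvest days. At 19 DIV Igf2 stood 40.9-fold higher in ES (counting interval 17.3 to 127), and at 11 DIV it stood at 0.496 times control (counting 0.446 to 0.551). The spread-adjusted intervals of these ratios included equality, with lower ends at 0.0224 and 0.0642. A control value of 5 reads is less than what 1 sampled molecule was estimated to give, so the size of the 19 DIV ratio rests on very few sampled molecules.

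H19 (minus strand, 142575529 to 142578143), the long non-coding RNA of the same domain, is abundant in embryonic mesoderm and endoderm and carries the precursor of miR-675 in its sequence. It had 574 CPM in ES and 205 CPM in control at 19 DIV, and 674 CPM in ES and 572 CPM in control at 11 DIV. The 19 DIV control was the low library, and the other 3 lay close together. H19 was 2.80-fold higher in ES than in control at 19 DIV (counting interval 2.63 to 2.97, spread-adjusted 1.08 to 8.51). At 11 DIV the ratio was 1.18 (1.13 to 1.24, spread-adjusted 0.575 to 2.45). Between days, the 19 DIV library was at 0.851 times the 11 DIV library in ES (spread-adjusted 0.406 to 1.80) and at 0.359 times in control (0.115 to 0.980). Both genes of the domain were therefore lowest in the 19 DIV control, but Igf2 was also lower in ES at 19 DIV than at 11 DIV while H19 differed little there. Against the summed fibroblast markers, which were higher at 19 DIV than at 11 DIV under both treatments, H19 stood at 4.11% in ES and 2.09% in control at 19 DIV, and at 8.96% and 10.7% in ES and control at 11 DIV. Col1a2 and Col1a1 gave 6074 and 3725 of the 13983 CPM of this sum in ES at 19 DIV. The single markers were mixed. By the size rule explained below, 7 of 12 were higher and 1 lower at 19 than at 11 DIV in ES. The rule called 30.9% and 30.5% of all rows there. In control 3 of 11 tested were higher and 2 lower, against 30.9% and 29.8%. The part of the cell mixture in these differences was not tested.

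**Figure D1:**
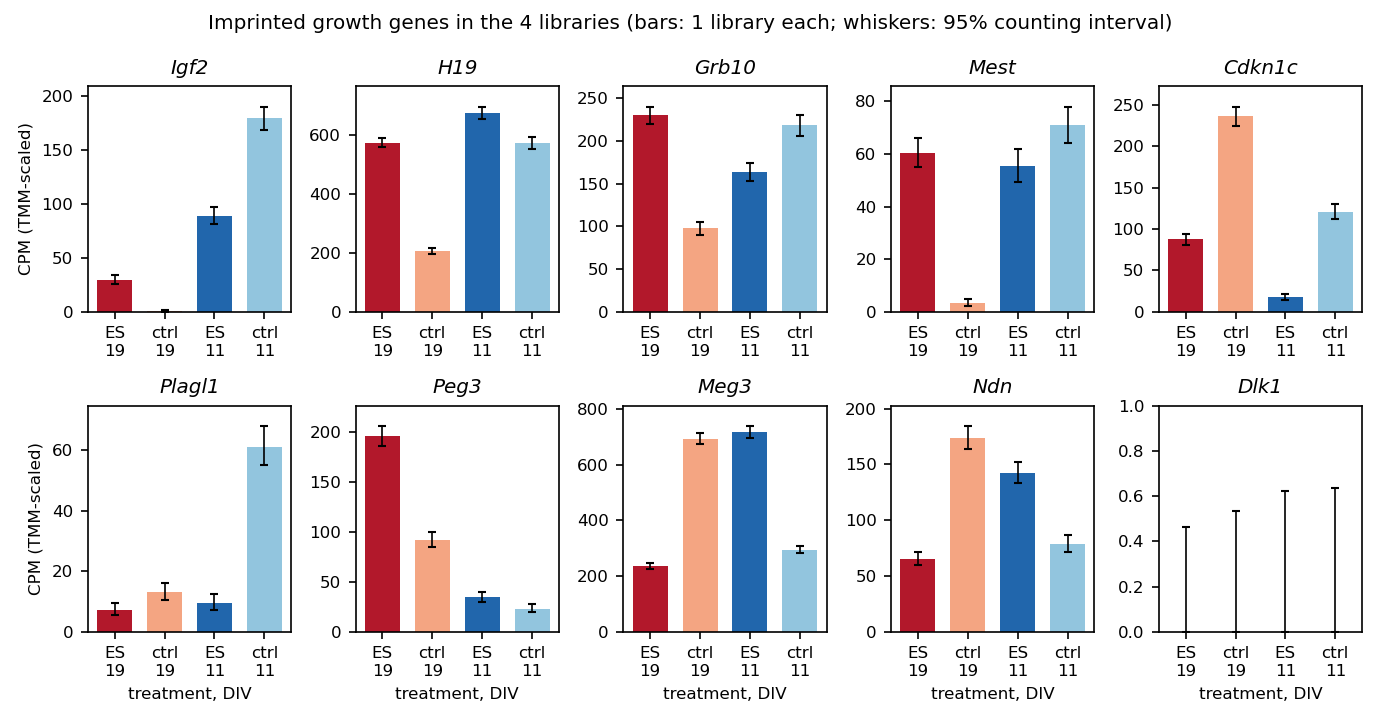
TMM-scaled CPM (vertical axis, linear, from 0, a scale of its own for each gene) of the 10 members in the ES and control (ctrl) libraries at 19 and 11 DIV. Each bar is 1 library and whiskers are 95% Poisson counting intervals; Igf2, H19, Grb10 and Mest are lowest in the 19 DIV control, Meg3 and Ndn are highest in the 19 DIV control and the 11 DIV ES library, and Dlk1 is at 0 throughout.

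Grb10 (chromosome 11, minus strand, 11930508 to 12038683, protein-coding) encodes an adaptor that binds the activated insulin and IGF1 receptors and dampens their signal. Its levels were 230 CPM in ES and 97.6 CPM in control at 19 DIV, and 163 CPM in ES and 218 CPM in control at 11 DIV. As with H19 and Igf2, the 19 DIV control was the low library. The ES to control ratio was 2.35 at 19 DIV (counting 2.15 to 2.57, spread-adjusted 0.549 to 14.5) and 0.750 at 11 DIV (0.689 to 0.816, spread-adjusted 0.173 to 3.0). No pair of libraries next to each other in the order of Grb10 levels was separated by the spread-adjusted interval.

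The receptors and intracellular partners through which IGF2 acts were measured alongside. Igf1r, the receptor that carries the growth signal, had 318 and 206 CPM in ES and control at 19 DIV, and 348 and 194 CPM in ES and control at 11 DIV. Igf2r, an imprinted receptor that clears IGF2 by carrying it to lysosomes, varied only between 86.1 and 106 CPM. Akt1, a kinase downstream of the IGF1 and insulin receptors, had 491 and 355 CPM in ES and control at 19 DIV, and 481 and 529 CPM in ES and control at 11 DIV. Of 19 genes of IGF and insulin receptor signalling, 16 had reads enough for a call in each pair. At 19 DIV 4 were higher and 2 lower in ES than in control by the size rule explained below, which called 29.4% of all rows higher and 31.3% lower. At 11 DIV 3 were higher and 2 lower, against 28.9% and 29.6% of all rows. None passed the spread-adjusted rule. The list's median log2 difference was 0.27 at 19 DIV and -0.29 at 11 DIV, against 0.00 over all rows of at least 10 mean reads on both days.

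Cdkn1c (chromosome 7, minus strand, 143458339 to 143461050, protein-coding) lies 792 kb from Igf2 in a separately controlled domain. It encodes p57, an inhibitor of cyclin-dependent kinases that holds cells out of the cycle and, in rodent Schwann cells, restrains differentiation. Its levels were 87.5 CPM in ES and 236 CPM in control at 19 DIV, and 17.7 CPM in ES and 121 CPM in control at 11 DIV. The ES library was the lower on both days, and the 19 DIV library was the higher under both treatments. ES stood at 0.370 times control at 19 DIV (counting 0.339 to 0.405, spread-adjusted 0.0612 to 1.63) and at 0.147 times at 11 DIV (0.118 to 0.180, spread-adjusted upper end 2.64). The 11 DIV ES library held 105 reads of Cdkn1c, fewer than the 120 estimated there for 1 sampled molecule. Cdkn1c corresponded to 0.888% and 2.11% of the summed glial markers in ES and control at 19 DIV, and to 0.236% and 2.67% in ES and control at 11 DIV. ES was thus below control on both days by this measure too, whereas in control the 19 DIV percentage lay below that of 11 DIV and the CPM above it. The part of the glial share was not tested.

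Among the cell cycle genes and other partners of the members, Ccnd1, the D-type cyclin with most reads, had 1744 and 1340 CPM in ES and control at 19 DIV, and 1433 and 1984 CPM in ES and control at 11 DIV. Ccnd2, a related cyclin, had 901 and 671 CPM in ES and control at 19 DIV, and 146 and 510 CPM in ES and control at 11 DIV. In ES cultures Ccnd2 was 6.19-fold higher at 19 than at 11 DIV (spread-adjusted 2.0 to 28.5), the only partner past the spread-adjusted rule in any of the 4 comparisons. Nedd4, a ubiquitin ligase that GRB10 recruits to receptors, had 885 and 573 CPM in ES and control at 19 DIV, and 691 and 552 CPM in ES and control at 11 DIV. By the size rule, 4 partners were higher and 3 lower in ES at 19 DIV among 17 tested (29.4% and 31.3% of all rows). At 11 DIV 3 were higher and 6 lower in ES among 19 tested (28.9% and 29.6%).

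Plagl1 (chromosome 10, plus strand, 13060504 to 13131694, protein-coding) encodes a zinc finger transcription factor known in the mouse to bind enhancers of the H19 and Igf2 domain and to act on Cdkn1c and Dlk1. It had 7.26 CPM in ES and 13.2 CPM in control at 19 DIV, and 9.62 CPM in ES and 61.1 CPM in control at 11 DIV. The 11 DIV control was the high library, with 354 reads, and the other 3 held 57 to 91 reads. Plagl1 stood at 0.157 times control in ES at 11 DIV by counting error (0.117 to 0.209). Those 57 to 91 reads are fewer than 1 sampled molecule was estimated to give in any library. The spread-adjusted intervals of all 4 Plagl1 ratios included equality and were too wide to be of use.

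Meg3 and Dlk1 form another imprinted pair, 77.7 kb apart on chromosome 12. Dlk1 (plus strand, 109452823 to 109463336, protein-coding), a transmembrane protein related to Notch ligands that keeps precursor cells from differentiating, had 0 reads in all 4 libraries. A count of 0 allows up to 3 reads, or 0.376 to 0.518 CPM. If 1 molecule stood for as many reads as estimated, it allows up to 3 molecules, which is 53.9 to 60.8 CPM. Dlk1 RNA was not detectable at this depth. Of all rows, 44.7% were at 0 in the 4 libraries.

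Meg3 (plus strand, 109541001 to 109571726), the maternally expressed long non-coding RNA of that domain, is abundant in the nuclei of neurons. It had 236 CPM in ES and 692 CPM in control at 19 DIV, and 715 CPM in ES and 295 CPM in control at 11 DIV. Its level was high in the 19 DIV control and the 11 DIV ES library and low in the other pair. ES stood at 0.341 times control at 19 DIV (counting 0.323 to 0.359, spread-adjusted 0.130 to 0.805) and 2.43-fold higher at 11 DIV (2.29 to 2.57, spread-adjusted 1.03 to 6.28). Between days, the ratio of 19 to 11 DIV was 0.330 in ES (spread-adjusted 0.117 to 0.834) and 2.35 in control (0.978 to 6.36). Gm26906, an annotated non-coding RNA on the other strand, overlaps Meg3 over 3096 bases and stops just short of its 3' end. With strand use unstated, reads of Meg3 and Gm26906 could not be told apart. Rian, a non-coding RNA downstream of Meg3 on the same strand, had 79.9 CPM in ES and 147 CPM in control at 19 DIV, and 142 CPM in ES and 68.2 CPM in control at 11 DIV. Rian, taken from the list of other imprinted genes and singled out after its values were seen, was also higher in the 19 DIV control and the 11 DIV ES library. Dio3, at the far end of the domain, had reads in the 19 DIV ES library only, at 80.8 CPM, and Rtl1 had at most 0.125 CPM.

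The promoter of Meg3 is shown with that of Peg3, described below, because both windows contain the palindrome TGACGTCA, the consensus cAMP response element (CRE). The sequences are from RefSeq on GRCm38.p6, 250 bases before and 50 after the start of transcription, read 5′ to 3′ on the strand of the gene: Meg3 from chr12:109540746-109541045 on the plus strand and Peg3 from chr7:6730370-6730669 on the minus strand. Capitals mark TGACGTCA in both and GGGGCCCC, the core of the site bound by PLAGL1, in Peg3.
Meg3: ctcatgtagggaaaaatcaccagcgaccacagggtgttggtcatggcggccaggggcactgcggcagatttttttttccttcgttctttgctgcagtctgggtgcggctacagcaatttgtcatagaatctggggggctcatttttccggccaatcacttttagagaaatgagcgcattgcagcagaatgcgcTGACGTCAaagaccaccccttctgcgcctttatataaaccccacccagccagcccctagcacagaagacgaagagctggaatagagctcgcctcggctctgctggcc
Peg3: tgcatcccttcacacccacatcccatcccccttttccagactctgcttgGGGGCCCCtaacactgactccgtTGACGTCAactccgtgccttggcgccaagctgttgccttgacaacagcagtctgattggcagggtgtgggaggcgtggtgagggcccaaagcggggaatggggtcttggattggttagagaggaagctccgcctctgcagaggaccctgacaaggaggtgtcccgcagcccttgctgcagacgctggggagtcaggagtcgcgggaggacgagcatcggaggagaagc
TGACGTCA was searched for after the sequences had been read, on both strands, and 1.79% of all 32851 promoter windows of that length contain it. GGGGCCCC occurs in 1.08% of windows. Promoter windows were given for 8 members, 15 in all. None of these held a YY1 motif (in 0.633% of all windows) or a CTCF motif (in 0.0365%), searched on both strands. The windows of the members had a median GC content of 59.3%, against 52.7% over all windows. Their median CpG ratio (observed over expected) was 0.59, against 0.38, with single windows from 0.06 to 0.97. These medians count windows and not genes. Some members had several windows, and those of Mest starting at 30737800 and 30737803 nearly coincide. A match describes letters in a window and not binding.

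Ndn (chromosome 7, plus strand, 62346569 to 62350262, protein-coding) encodes necdin, a protein of postmitotic neurons, including sensory neurons, that restrains the cell cycle and apoptosis and binds E2F1 and p53. It had 65.5 CPM in ES and 174 CPM in control at 19 DIV, and 142 CPM in ES and 78.7 CPM in control at 11 DIV. The pattern matched that of Meg3 in which libraries were high and low. ES stood at 0.376 times control at 19 DIV (counting 0.339 to 0.417, spread-adjusted 0.0418 to 2.16) and 1.81-fold higher at 11 DIV (1.61 to 2.03, spread-adjusted 0.272 to 17.5). An annotated non-coding RNA, Gm32061, covers the 3' end of Ndn on the other strand. Its own annotated 3' end, at 62337794, lies outside Ndn, and its 3' tags would be expected there. The sources used here do not say whether counting used strand. Reads from other parts of Gm32061, if there were any, could therefore not be told from those of Ndn.

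Meg3, Rian and Ndn were above their means in the same libraries as the summed neuron markers, the 19 DIV control and the 11 DIV ES library. The low libraries matched less well. In the 11 DIV control the summed markers, at 3399 CPM, lay well above the 1865 CPM of the 19 DIV ES library. Rian, unlike these markers, was lowest in the 11 DIV control (68.2 CPM). The summed markers were highest in the 11 DIV ES library and lowest in the 19 DIV ES library, as Meg3 was, and differed 2.58-fold between these. By the size rule 9 of 12 neuron markers were lower in ES than in control at 19 DIV and none higher, where 31.3% of all rows were lower and 29.4% higher. At 11 DIV 4 of the 11 tested were higher and none lower, where 28.9% of all rows were higher and 29.6% lower. The other 7 passed neither limit, among them Nefm and Uchl1, at 0.780 and 0.844 times control in ES. Pou4f1, not tested at 11 DIV, had 10 reads in ES and 0 in control. Single markers thus did not all follow the sum. Prph, a neurofilament protein of peripheral neurons, had 340 and 906 CPM in ES and control at 19 DIV, and 1192 and 667 CPM in ES and control at 11 DIV. Stmn2, a microtubule regulator of growing axons, had 262 and 789 CPM in ES and control at 19 DIV, and 841 and 616 CPM in ES and control at 11 DIV. Prph, Stmn2 and Tubb3 were lower in ES at 19 DIV by the spread-adjusted rule as well. Set against the summed neuron markers, Meg3 stood at 12.6% in ES and 15.3% in control at 19 DIV, and at 14.9% in ES and 8.67% in control at 11 DIV. These percentages varied 1.77-fold across the libraries, whereas the CPM of Meg3 varied 3.03-fold. For Ndn the percentages were 3.51% and 3.85% in ES and control at 19 DIV, and 2.96% and 2.32% in ES and control at 11 DIV, varying 1.66-fold, against 2.66-fold in CPM. For Rian the percentages were 4.28% and 3.26% in ES and control at 19 DIV, and 2.95% and 2.01% in ES and control at 11 DIV, and they varied 2.14-fold, nearly as much as its CPM (2.16-fold). The part of the neuronal share in the differences of Meg3, Ndn and Rian was not tested.

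**Figure D2:**
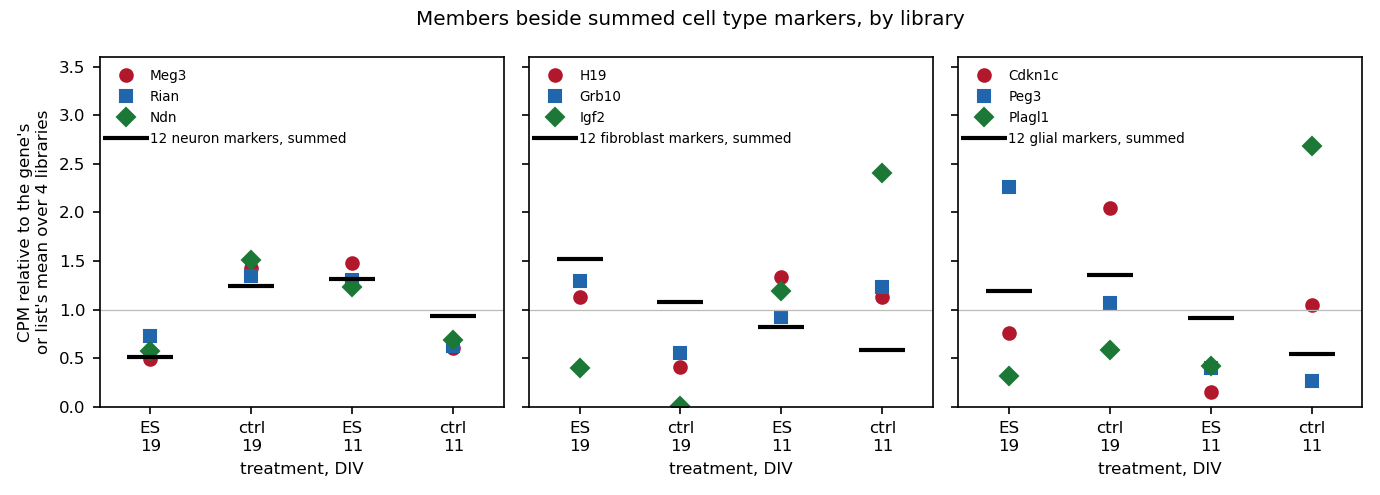
CPM of members relative to their mean over the 4 libraries (points, vertical axis, no unit) beside summed marker CPM scaled the same way (black bars), in ES and control (ctrl) at 19 and 11 DIV, 1 library each. Meg3, Rian and Ndn lie above and below their means in the same libraries as the neuron marker bars (left), while H19, Grb10 and Igf2 do not do so with the fibroblast bars (middle). The fibroblast bars are led by Col1a2 and Col1a1, and single markers of that list were mixed. Of the genes beside the glial bars (right), Peg3 lies above its mean at 19 DIV and below it at 11 DIV as these bars do, and Cdkn1c and Plagl1 do not.

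Peg3 (chromosome 7, minus strand, 6703892 to 6730431, protein-coding) encodes a large zinc finger protein known in the mouse to influence growth, maternal behaviour and stem cells of many tissues. It had 196 CPM in ES and 92.4 CPM in control at 19 DIV, and 34.8 CPM in ES and 23.1 CPM in control at 11 DIV. Both 19 DIV libraries exceeded both 11 DIV libraries, and ES exceeded control on both days. The summed fibroblast markers given above had the same order of libraries, with a 2.62-fold difference between highest and lowest, against 8.47-fold for Peg3, and the summed glial markers were also higher at 19 DIV under both treatments. Their part in the Peg3 differences was not tested. The 19 DIV library was 5.64-fold higher than the 11 DIV library in ES (counting 4.87 to 6.55, spread-adjusted lower end 0.591) and 4.0-fold higher in control (3.31 to 4.85, spread-adjusted lower end 0.211). The ES to control ratio was 2.12 at 19 DIV (1.93 to 2.33, spread-adjusted 0.455 to 14.3) and 1.5 at 11 DIV (1.20 to 1.88, spread-adjusted lower end 0.0146). The 11 DIV libraries held only 206 and 134 reads in ES and control. Of its neighbours in the domain, Usp29 had no reads and Zim1 had 1 read in a single library.

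Mest (chromosome 6, plus strand, 30723547 to 30748465, protein-coding), an enzyme-like protein of the alpha/beta hydrolase fold found in embryonic mesoderm, had 60.2 CPM in ES and 3.34 CPM in control at 19 DIV, and 55.4 CPM in ES and 70.8 CPM in control at 11 DIV. The 19 DIV control was again the low library, with 23 reads against 328 to 481 in the others. ES stood 18.1-fold higher than control at 19 DIV by counting error (11.9 to 28.8), with a spread-adjusted lower end of 0.158, and at 0.782 times control at 11 DIV (0.675 to 0.907, spread-adjusted 0.0386 to 12.2). The 3' end of Mest overlaps that of Copg2, a gene of the vesicle coat on the opposite strand, over 912 bases. Copg2 had 482 and 153 reads in ES and control at 19 DIV, and 363 and 411 reads in ES and control at 11 DIV. The tables therefore differed by 1 read in the 19 DIV ES and the 11 DIV control library, by 35 reads in the 11 DIV ES library and by 130 reads in the 19 DIV control. Since the use of strand is unstated for these counts, reads of the pair could not be told apart and the Mest values are uncertain.

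**Figure D3:**
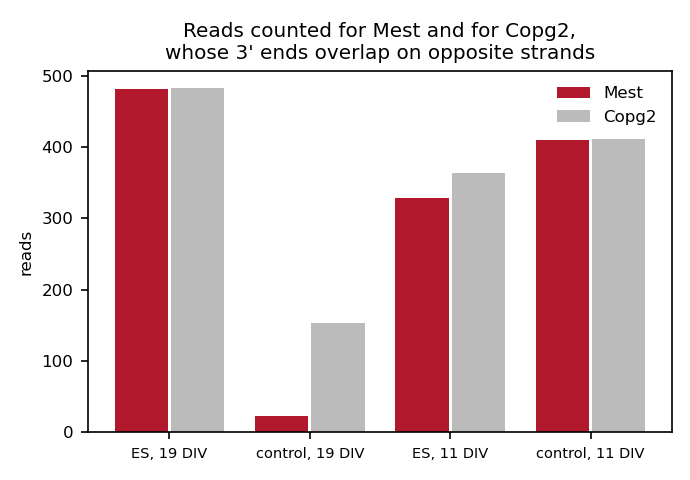
Reads (vertical axis, from 0) counted for Mest and for Copg2 in each library. The bars are within 1 read of each other in ES at 19 DIV and control at 11 DIV, and only in control at 19 DIV does Copg2, with 153 reads, stand well above Mest, with 23.

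The members were then read together. The size rule asked for a ratio of at least 2, for 50 or more reads in whichever library was higher, and for a counting interval clear of equality. The spread-adjusted rule kept the ratio and the reads and asked for a 99% spread-adjusted interval clear of equality. In ES over control at 19 DIV, 5 members (H19, Igf2, Peg3, Mest and Grb10) were higher and 3 (Meg3, Cdkn1c and Ndn) lower by the size rule, where the rule called 29.4% of 10027 rows higher and 31.3% lower. In ES over control at 11 DIV, 1 member (Meg3) was higher and 3 (Igf2, Cdkn1c and Plagl1) lower, against 28.9% and 29.6% of 9834 rows. With such background shares, 8 or 4 of 9 tested members past the rule carry little information on the group. Igf2 at 11 DIV was at the limit of 2-fold and was no longer past the size rule when libraries were scaled by DESeq2 size factors or by total counts. The median log2 difference of the 9 members was 1.08 at 19 DIV and -0.35 at 11 DIV, against 0.00 over all rows. Over the 6 members with at least 500 mean reads it was -0.16 and 0.41, on the other side of 0, so the members did not share a direction. Without Mest the medians were 0.12 at 19 DIV and -0.09 at 11 DIV.

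Between the days, 2 members (Peg3 and Cdkn1c) were higher and 3 (Igf2, Meg3 and Ndn) lower at 19 than at 11 DIV in ES cultures, against 30.9% and 30.5% of 9884 rows. In control cultures 3 (Meg3, Peg3 and Ndn) were higher and 5 (H19, Igf2, Mest, Grb10 and Plagl1) lower, against 30.9% and 29.8% of 10025 rows. The members' median log2 difference between days was -0.23 in ES and -1.15 in control, and over members of at least 500 mean reads 0.13 and 1.05. Without Mest it was -0.31 in ES and -0.09 in control. These day comparisons share their libraries with the ES comparisons and are not separate evidence. Split by parental copy, the 5 paternally expressed members with reads had a median of 1.08 for ES over control at 19 DIV and -0.35 at 11 DIV. The 4 maternally expressed members had -0.10 and -0.09. These medians rest on few and mixed values. At 19 DIV the paternally expressed members ran from -1.41 (Ndn) to 4.91 (Igf2), with the uncertain Mest among them. Of the maternally expressed members, H19 and Grb10 were at 1.48 and 1.23, and Meg3 and Cdkn1c at -1.55 and -1.43.

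No member passed the spread-adjusted rule in any of the 4 comparisons, a rule that called, in either direction, 0.259% of rows for ES over control at 19 DIV, 0.315% at 11 DIV, 0.425% for 19 over 11 DIV in ES and 0.618% in control. The 95% spread-adjusted interval excluded equality in 5 of 36 ratios, all of H19 or Meg3, the members with most reads (means of 3327 and 3150). These were H19 and Meg3 for ES over control at 19 DIV, Meg3 for ES over control at 11 DIV, H19 for 19 over 11 DIV in control and Meg3 for 19 over 11 DIV in ES. Over all rows tested the interval excluded equality for 1.06% in ES over control at 19 DIV, 0.997% at 11 DIV, 1.04% in 19 over 11 DIV in ES and 1.47% in control. Among rows with at least 2000 mean reads in the pair, as H19 and Meg3 had in every pair, it did so for 8.67% in ES over control at 19 DIV, 13.6% at 11 DIV, 10.9% in 19 over 11 DIV in ES and 21.4% in control. When the 4 libraries were ordered by level for each member, 26 of the 27 steps between neighbours included equality. The exception was the step for H19 between control at 19 DIV and control at 11 DIV, where the 11 DIV control was 2.79-fold higher (spread-adjusted 1.02 to 8.68).

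**Figure D4:**
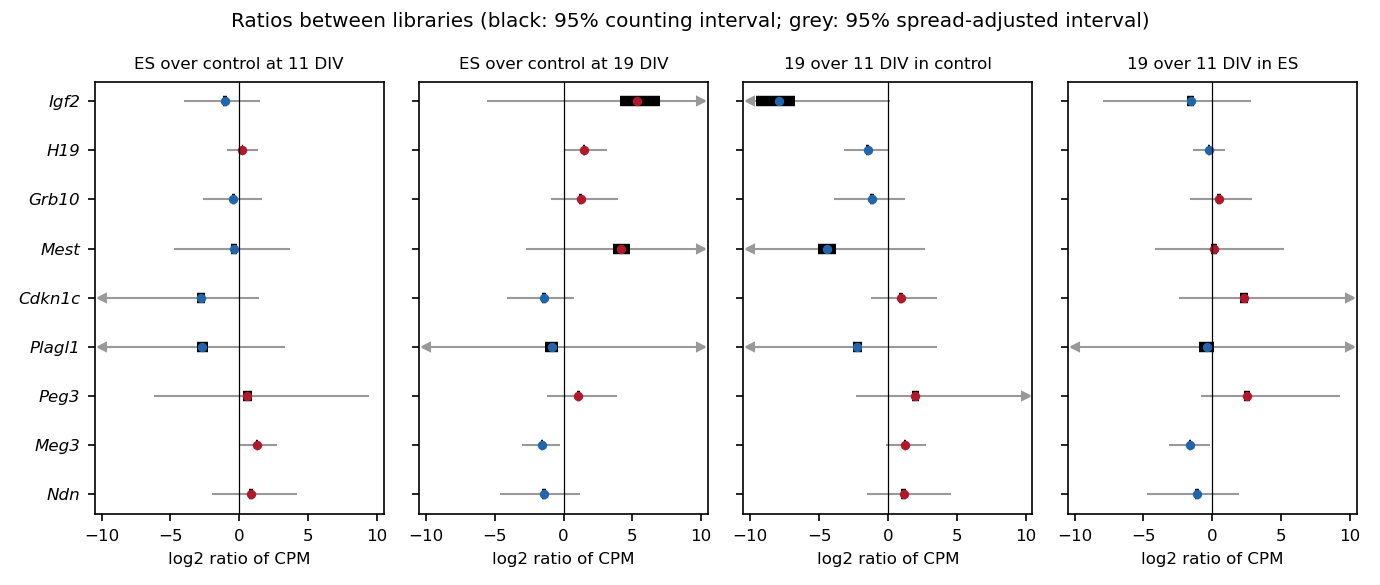
Log2 ratio of CPM (horizontal axis) for 9 members in the 4 comparisons, 1 library against another, with the 95% counting interval (black) and the 95% spread-adjusted interval (grey, arrows where it runs past the axis). Red points are above equality and blue points below; the grey interval stays clear of 0 for H19 or Meg3 alone, in 5 of the 36 ratios.

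A fit over all 4 libraries with stimulation and day as additive factors has 1 residual degree of freedom and assumes that stimulation acts alike on both days. With edgeR's quasi-likelihood test the additive ES effect called 0 of 10050 rows (0%) and the day effect 0 (0%). At an unadjusted p under 0.05 there were 109 rows (1.08%) for ES and 202 rows (2.01%) for day. Cdkn1c had an ES effect of -2.10 on the log2 scale (lower in ES on both days; edgeR unadjusted p = 0.033, adjusted p = 1) and Peg3 a day effect of 2.24 (higher at 19 DIV under both treatments; edgeR unadjusted p = 0.0472, adjusted p = 1). H19 had an ES effect of 0.86 (higher in ES on both days; edgeR unadjusted p = 0.113, adjusted p = 1). Igf2 had a day effect of -4.61 (lower at 19 DIV under both treatments; edgeR unadjusted p = 0.0792, adjusted p = 1). Limma with voom also called 0 rows for either effect (566 rows for ES and 701 for day at an unadjusted p under 0.05). DESeq2's Wald test put far more rows at an unadjusted p under 0.05, 1970 (19.6%) for ES and 2302 (22.9%) for day. It called 503 rows (5.0%) for ES and 832 (8.28%) for day. Among these were Cdkn1c for ES (DESeq2 adjusted p = 0.0128) and Peg3, Igf2 and Cdkn1c for day (DESeq2 adjusted p = 0.00218, 0.0118 and 0.0487). Over the alternatives run for each of these 4 effects, the adjusted p reached 1.00.

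The difference between the ES effects on the 2 days could not be tested. As values, the log2 difference at 19 DIV minus that at 11 DIV was 5.92 for Igf2, 4.42 for Mest, 1.79 for Plagl1, 1.65 for Grb10, 1.32 for Cdkn1c, 1.25 for H19 and 0.50 for Peg3, and it was -2.83 for Meg3 and -2.26 for Ndn. Meg3 and Ndn were thus the members whose ES difference was lower at 19 DIV than at 11 DIV.

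Beyond the members, 58 other imprinted genes had rows, of which 39 had reads in some library. Gnas, which encodes the stimulatory G protein subunit, had 988 CPM in ES and 1417 CPM in control at 19 DIV, and 964 CPM in ES and 1367 CPM in control at 11 DIV. Cd81, a tetraspanin of the same chromosome region as Cdkn1c, had 658 and 506 CPM in ES and control at 19 DIV, and 516 and 562 CPM in ES and control at 11 DIV. In ES over control, 5 of 30 tested were higher and 10 lower at 19 DIV by the size rule (29.4% and 31.3% of all rows), and 10 of 30 were higher and 7 lower at 11 DIV (28.9% and 29.6%). None passed the spread-adjusted rule. The list's median log2 difference was -0.51 at 19 DIV and 0.00 at 11 DIV. The rows Snrpn and Snurf, which share a transcript, carried equal counts in 3 of the libraries and are not separate measurements.

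The factors that keep or read imprints were also detected. Trim28, a corepressor that guards imprinted methylation, had 301 CPM in ES and 274 CPM in control at 19 DIV, and 396 CPM in ES and 267 CPM in control at 11 DIV. Arid4a, a chromatin protein, had 114 and 164 CPM in ES and control at 19 DIV, and 116 and 218 CPM in ES and control at 11 DIV. Of 17 such genes tested at 19 DIV, 1 was higher and 9 were lower in ES by the size rule, against 29.4% and 31.3% of all rows. Of 15 tested at 11 DIV, 5 were higher and 6 lower, against 28.9% and 29.6%. None passed the spread-adjusted rule. The list's median log2 difference was -1.07 at 19 DIV and 0.44 at 11 DIV, against 0.00 over all rows.

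By Euclidean distance over the 4 centred log2 CPM values, the rows nearest to H19 among 2963 rows of at least 500 mean reads were Prdx5 (0.191), Rnaset2b (0.254) and Mrps25 (0.258). Those nearest to Igf2 were Dpm2 (1.47), Setd1b (1.47) and Vps37a (1.70). All 6 were lowest in the 19 DIV control, which follows from picking rows like H19 and Igf2, both lowest there. Prdx5 had 163 CPM in ES and 66.9 CPM in control at 19 DIV, and Setd1b 82.4 CPM in ES and 0.580 CPM in control. Likeness over only 4 values is weak, since the nearest rows were picked from 2963 and all come from the same libraries.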

How the data were processed

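The members, the gene lists and the tests were chosen with earlier results of these data known. RNA was measured in 4 libraries of pooled explants, made with QuantSeq from 500 ng of total RNA, as the labels' protocols say. The authors deposited a table for each library that holds unnormalised counts by gene symbol, all whole numbers. Bowtie2, bedtools and build mm10 are named in the submitters' processing notes; for versions, annotation, strand use and duplicates the sources used here give nothing. No member was among the 35 symbols listed repeatedly. Rn45s, the ribosomal RNA precursor, took 2.65% and 2.82% of reads in ES and control at 19 DIV, and 3.08% and 5.18% in ES and control at 11 DIV.

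Counts were scaled with TMM (edgeR 4.0.16, R 4.3.3). Ratios carry Clopper-Pearson 95% intervals on the counts, and on counts divided by the spread factor, the median squared standardised difference between the libraries over the chi-square median. Log2 differences used a prior count of 2. The additive model was fitted to all rows kept by filterByExpr with edgeR's quasi-likelihood test and Benjamini-Hochberg adjustment at 0.05; DESeq2 1.42.0 and limma 3.58.1 were alternatives. The steps were tested on simulated data, with clumped reads for the ratios and without them for the additive fit. The latter cannot show how the fit behaves on reads clumped as these were. Gene positions are from GENCODE M21 (GRCm38, the assembly of mm10). Named besides the members were, per list, the 2 genes of highest mean CPM and up to 2 with the largest difference past the spread-adjusted rule, and the 3 nearest rows to Igf2 and H19. Single genes of the glial list are not reported here. Tubb3, Nefm, Uchl1, Pou4f1, Dio3, Rtl1, Rian, Copg2, Igf2r, Usp29, Zim1, Snrpn and Snurf were named after their values were seen, as were marker genes given as 0. Python 3.11.15 with scipy 1.17.1, numpy 2.4.6, pandas 2.3.3 and matplotlib 3.10.9 was used. All intervals cover counting error or the spread across rows, not variation between cultures.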

Additional observations from a re-analysis of the deposited data

Results flagged for a closer look

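Several members differed in opposite directions under the same contrast, and with 1 library a group none of these differences between contrasts was tested. Values are log2 differences of CPM. For ES over control, Igf2 was at 4.91 at 19 DIV and -1.01 at 11 DIV, Mest at 4.07 and -0.35, and Grb10 at 1.23 and -0.41 on these days. Meg3 was at -1.55 at 19 DIV and 1.28 at 11 DIV, and Ndn at -1.41 and 0.85. For 19 over 11 DIV, Meg3 was at -1.60 in ES and 1.23 in control, Ndn at -1.12 in ES and 1.14 in control, Mest at 0.12 in ES and -4.28 in control, and Grb10 at 0.49 in ES and -1.15 in control. The same 4 libraries give both contrasts, so a member named under both is 1 observation.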

How the results depend on the processing

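Single-gene values, 324 in all, were taken under other scalings, thinning to 5782834 reads, read minimums, fold limits, spread windows and prior counts. Of these, 311 kept their side of the size rule and none turned its direction. These totals include values fixed in advance: prior counts, spread windows and the minimum of 10 reads could not change a call of a member. Only the other scalings and thinning could turn a direction. The call was lost for 8 values and gained for 5. Igf2 at 11 DIV lost it under DESeq2 size factors, total counts and thinning. The other losses came only with at least 500 reads in the higher library. With at least 500 reads in the higher library, 3 members were higher in ES at 19 DIV and 3 lower at 19 than at 11 DIV in control. With a 1.5-fold limit, 3 were higher in ES at 11 DIV. Counting only members of at least 500 mean reads, 1 was lower in ES at 11 DIV, 3 higher in ES at 19 DIV and 2 lower at 19 DIV in control, and the medians reversed, to -0.16 for ES over control at 19 DIV, 0.41 at 11 DIV, and, for 19 over 11 DIV, 0.13 in ES cultures and 1.05 in control cultures; fewer genes were counted. Without Mest, left out after seeing the data, the medians were 0.12 for ES over control at 19 DIV, -0.09 at 11 DIV, and, between days, -0.31 in ES cultures and -0.09 in control cultures. DESeq2 called 503 rows and 1 member for ES and 832 rows and 3 members for day, where edgeR called 0; the cause was not tested. No paired analysis was possible because each group had 1 library. Leaving out a library from the additive fit leaves no residual degree of freedom, so it was not run. Depth limits Igf2, Mest, Plagl1, Cdkn1c and Dlk1 most: their lowest counts are below the reads estimated for 1 molecule.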
